A study of Mus musculus with 34 samples.

Results

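The receptors and SMAD proteins with which cumulus cells (CCs) read signals from the oocyte were followed in RNA-seq of CCs from lean, obese and leptin-treated mice. They were represented by 10 genes, matched by symbol in the count table, out of 25965 entries. The genes are the type II receptor Bmpr2, the type I receptors Bmpr1a, Bmpr1b and Tgfbr1, the receptor-activated SMADs Smad1, Smad2 and Smad3, the common partner Smad4, and the inhibitory SMADs Smad6 and Smad7. All 10 were found once and were counted in 34 libraries of 7 groups. In GRCm38 they lie on chromosome 1 (Bmpr2, chr1:59764279-59870549), chromosome 14 (Bmpr1a, chr14:34410734-34503341), chromosome 3 (Bmpr1b, chr3:141837136-142169425), chromosome 4 (Tgfbr1, chr4:47353222-47414931), chromosome 8 (Smad1, chr8:79338395-79399518) and chromosome 9 (Smad3, chr9:63646767-63757994, and Smad6, chr9:63953076-64022059). Smad2, Smad4 and Smad7 share chromosome 18. CCs are follicle cells of the granulosa lineage that enclose the oocyte. About 50 CCs went into each library, taken after superovulation of female C57BL/6J mice, and the sample labels give them as cells of 1 cumulus-oocyte complex, whereas the study's methods count them per animal. In the pharmacological hyperleptinemic model, mice of 8 weeks of age received saline (16 C, n = 3) or leptin at 100 μg/day (16 L, n = 5) intraperitoneally for 16 days. In the diet-induced obesity protocol, mice of the same starting age ate chow diet (CD, 11% of energy from fat) or high-fat diet (HFD, 58% of energy from fat) for 4 weeks (n = 5 each) or for 16 weeks (CD, n = 6, and HFD, n = 7). These fat shares are those of the sample labels, and the study's methods give other values. A further 3 libraries came from low weight gainers, also kept on HFD for 16 weeks. All mice were wild type as far as the labels tell, and every library, controls included, came from hormone-stimulated females.

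The oocyte secretes growth differentiation factor 9 (GDF9) and bone morphogenetic protein 15 (BMP15), ligands of the TGF-β family, which CCs need for expansion and for their metabolic support of the oocyte. Both ligands bind the type II receptor BMPR2. GDF9 then recruits TGFBR1 (ALK5), which phosphorylates SMAD2 and SMAD3, whereas BMP15 recruits BMPR1B (ALK6), a receptor that signals through SMAD1 and its relatives. The phosphorylated SMADs join SMAD4 and enter the nucleus, and SMAD6 and SMAD7 restrain the pathway as induced feedback inhibitors.

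Total counts ranged from 1104611 to 13207018 per library. Levels are given below as RPM, the counts divided by the library's total after the totals of all libraries were scaled by the TMM method. The label of CCs was checked against 11 cumulus and granulosa markers, whose summed level lay between 6093 and 14920 RPM in 33 libraries. The sum rests largely on Hsd3b1 and Cyp11a1, with medians of 3462 and 2232 RPM over all libraries. Has2, Foxl2 and Fshr, with medians of 2.21, 6.70 and 10.3 RPM, hardly enter it. It was 1108 RPM in 16 L replicate 18, where the expansion genes Has2 and Ptx3 had no read and Tnfaip6 was at 1.81 RPM. Has2 also had no read in 16 L replicate 21 and 4-week HFD replicate 4. Not all markers were low in replicate 18. Inha was at 553 RPM, against 449 to 647 RPM in the rest of 16 L. Foxl2 was at 6.90 RPM, and Fshr at 4.77 RPM, against 4.73 to 6.93 RPM in 16 C. In replicate 18 the 6 oviduct epithelium markers summed to 34686 RPM, against 130 to 1811 RPM in the other libraries, and the red blood cell markers to 10641 RPM. The leptin results are therefore given with and without it. The oocyte marker sum was 401 RPM in 4-week HFD replicate 5, where Gdf9 was at 141.6 RPM and Bmp15 at 75.4 RPM, and at most 19.1 RPM elsewhere. The 16-week CD replicates 1 and 2 also stood apart, since their 50 most abundant genes took 14.9% and 15.5% of the reads, against 24.3% to 30.4% in the other 4 libraries of their group.

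With length taken into account, Tgfbr1, the receptor through which GDF9 signals, was the most abundant of the 10 genes in 33 of 34 libraries. Its median over all libraries was 119.8 RPM per kb of exon. The next genes were Smad4 with 24.5, Bmpr1a with 20.8, Bmpr1b with 19.7 and Smad2 with 11.6 RPM per kb. Smad1 (3.36), Smad7 (3.23), Smad3 (2.64), Bmpr2 (1.59) and Smad6 (0.342) lay lower on the same scale. Neighbours in this order overlapped over the libraries, among them Smad4, Bmpr1a and Bmpr1b as well as Smad1, Smad7 and Smad3. The exception was 16 L replicate 18, in which Tgfbr1 fell to rank 6 of 10 and Smad4 was highest.

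**Figure D1:**
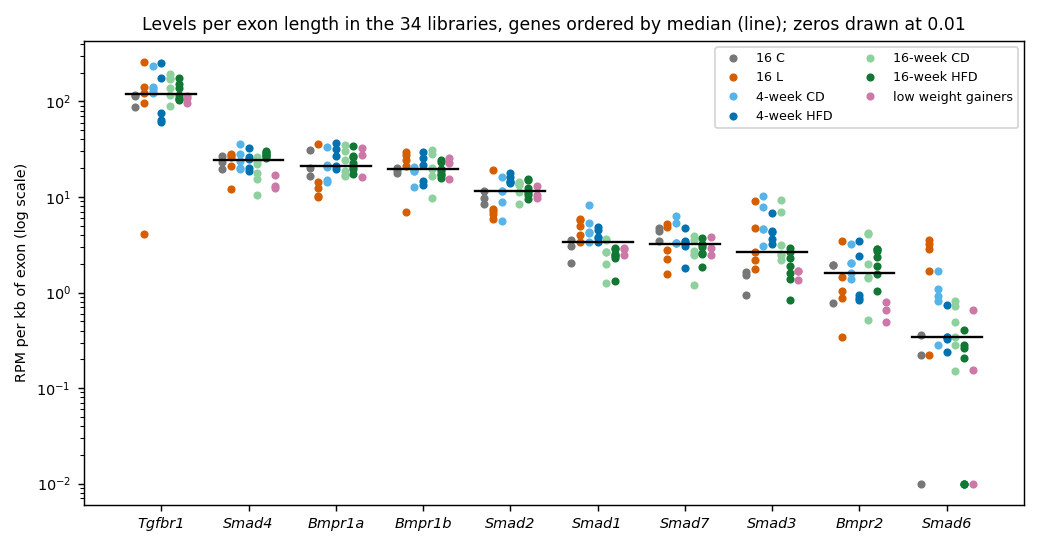
Level of each gene in RPM per kb of exon (log scale) in the 34 libraries, 1 point per library, colored by group, with a line at the median over all libraries. Genes are ordered by that median, from Tgfbr1 at 119.8 to Smad6 at 0.342, and libraries without a Smad6 read are drawn at 0.01.

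The type II receptor was thus far scarcer in mRNA than the type I receptors it pairs with. Per kb, the ratio of Tgfbr1 to Bmpr2 was above 1 in all 34 libraries, with a median of 73.2 and a range from 11.8 to 230.3. The ratio of Tgfbr1 to Bmpr1b had a median of 6.27 and was above 1 in 33 libraries. The 2 BMP type I receptors were closer to each other, with a median ratio of Bmpr1a to Bmpr1b of 1.25, above 1 in 23 of 34 libraries. Between the 2 SMADs downstream of GDF9, Smad2 exceeded Smad3 in all 34 libraries, with a median ratio of 4.06. That ratio had its lowest group median, 1.83, in 4-week CD and its highest, 7.81, in 16-week HFD. It was nearly as high in the saline controls, with a median of 7.59 in 16 C. The other medians were 6.19 in the low weight gainers, 4.01 in 16-week CD, 3.93 in 4-week HFD and 2.53 in 16 L. These levels were compared per length of exon, and a bias of the oligo-dT method toward the 3′ end was not corrected.

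The genes also differed in how steady they were. Over the 34 libraries the coefficient of variation of the RPM was 26.5% for Smad4, 27.4% for Bmpr1b and 28.7% for Smad2. It was 34.0% for Bmpr1a, 34.4% for Smad7, 40.6% for both Tgfbr1 and Smad1, 58.2% for Bmpr2, 70.5% for Smad3 and 129% for Smad6. The last 3 genes were among the lowest, with 2643, 3740 and 303 reads in all. Smad6 had no read in 5 libraries. A count of 0 allows up to 3 reads, which is a level of 0.806 to 2.26 RPM in those libraries and covers counting error only.

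**Figure D2:**
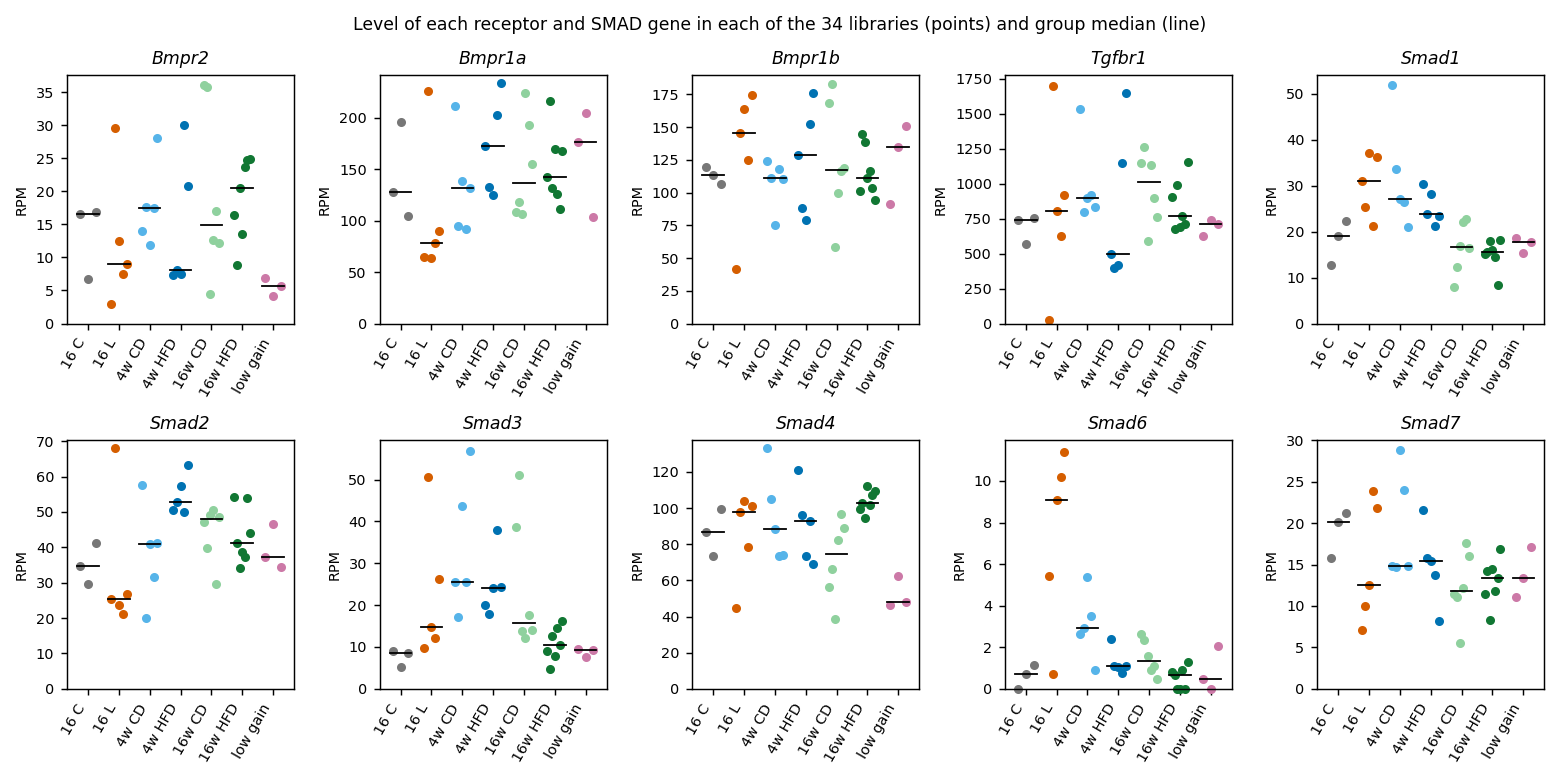
Level of each of the 10 genes in RPM (linear axes from 0), 1 point per library and a line at the group median. Tgfbr1 is near 0 in 1 library of 16 L, Smad6 is highest in 4 of 5 libraries of 16 L, and Bmpr2 and Smad4 are low in all 3 low weight gainers.

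When all 7 groups were tested together, 4 of 10 genes differed among them (edgeR quasi-likelihood F-test, Benjamini-Hochberg adjusted p over all genes). These were Smad1 (adjusted p = 0.00135), Smad3 (0.00052), Smad4 (0.0379) and Smad6 (0.000567). The call of Smad4 was lost without any 1 of 7 libraries, namely 16-week HFD replicates 12, 14, 15 and 16 and low weight gainers 21, 22 and 23 (adjusted p from 0.0501 to 0.123), and with no filter on low counts (0.0729). The receptors did not pass, with adjusted p from 0.146 for Bmpr2 to 0.972 for Bmpr1b, nor did Smad2 (0.246) and Smad7 (0.358). Without 16 L replicate 19, however, Bmpr2 (0.0218), Bmpr1a (0.0143) and Smad2 (0.00409) passed as well. The share of called genes was below that of all genes, of which 67.8% differed. DESeq2 called the same 4 members and 72.9% of all genes. With limma-voom and sample weights all 10 members passed, as did 93% of all genes.

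Smad1, a SMAD of the BMP branch, had its 3 highest group medians in 16 L and the 4-week groups. They were 31.1 RPM in 16 L, 27.1 in 4-week CD and 23.8 in 4-week HFD. The medians were 19.04 in 16 C, 16.7 in 16-week CD, 15.5 in 16-week HFD and 17.7 in the low weight gainers. The lowest 4-week library had 21.0 RPM and the highest 16-week library 22.8 RPM, so the 4-week and 16-week diet libraries overlapped narrowly. Smad5, a SMAD of the same branch that is not among the members, had its 3 highest group medians in the same groups. They were 61.6 to 71.3 RPM, against 21.1 to 29.1 RPM in the other groups. Time on the diet, age and collection cannot be told apart here. In the 17 libraries whose 50 most abundant genes took under 22% of the reads, Smad1 lay between 7.88 and 51.95 RPM (median 26.3). In the other 17 libraries it lay between 8.33 and 22.8 RPM (median 16.8). All libraries of 16 L and of the 4-week groups were under 22%, as were 16-week CD replicates 1 and 2. In 16-week CD replicates 1 and 2 Smad1 was at 7.88 and 12.3 RPM, the lowest levels of their group. The part of this share in the Smad1 result was not tested.

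The comparison of 16 L with 16 C asked whether these genes differed after leptin injection. The study reports lower body weight in leptin-treated than in saline mice on some days of injection. Leptin and body weight cannot be told apart here. None of the 10 passed the test, against 8.56% of all genes tested. Smad6 and Smad3 had the smallest p-values. Because the libraries hold bulk RNA, a smaller share of a cell type and less RNA per cell cannot be told apart here or below.

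Smad6, which blocks BMP signals at the receptor, is printed with its promoter because it had the largest fold change of the 10. The stretch runs from 250 bases before its RefSeq start to shortly past it (GRCm38.p6, chr9:64022056-64022309, minus strand), with GTCTAGAC, the palindromic SMAD-binding element, in capitals:
Smad6: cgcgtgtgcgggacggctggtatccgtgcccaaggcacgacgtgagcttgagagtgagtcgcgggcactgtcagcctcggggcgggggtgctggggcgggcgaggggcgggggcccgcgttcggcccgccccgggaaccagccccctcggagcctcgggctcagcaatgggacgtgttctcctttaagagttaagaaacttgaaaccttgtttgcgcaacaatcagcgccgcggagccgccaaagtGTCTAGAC
The motif spans the start site, with 4 bases on each side. Of 32851 RefSeq promoters of 300 bases in mouse, 0.213% hold it on either strand. Among 10 promoters listed for 7 of the genes (Bmpr2, Bmpr1a, Bmpr1b, Tgfbr1, Smad1, Smad3 and Smad6), 1 did. The shorter SMAD-binding element GTCTG, searched on both strands and not contained in the palindrome, was in 3 of the 10 and in 49.6% of all promoters. A match of letters does not show that a factor binds.

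In 16 C, Smad6 was at 0, 0.709 and 1.16 RPM. In 16 L it was at 5.42, 0.709, 9.08, 10.2 and 11.4 RPM in replicates 18, 19, 20, 21 and 23. Replicate 19 thus lay within the control range and the other 4 lay above it. These levels rest on 0, 6 and 3 reads in 16 C and on 33, 7, 21, 15 and 34 reads in 16 L. The count of 0 in 16 C replicate 1 allows up to 2.26 RPM. The log2 fold change was 3.33 ± 1.06 (SE), with an adjusted p of 0.0738 by edgeR. DESeq2 called it (adjusted p = 0.0098), the only gene of the 10 it called, where it called 23.7% of all genes. Without replicate 18 the log2 fold change was 3.28 and the adjusted p was 0.0331. The 4 libraries with high Smad6 were also those with raised oviduct markers, whose sum was 34686, 1412, 1811 and 661 RPM in replicates 18, 20, 21 and 23. It was 131 RPM in replicate 19 and 199 to 227 RPM in 16 C. Macrophage and leukocyte markers summed to 80.5 to 1266 RPM in 16 L and to 112 to 723 RPM in 16 C. Their part in the result was not tested.

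Smad3, which carries the GDF9 signal together with Smad2, was at 9.05, 5.20 and 8.47 RPM in 16 C. In 16 L it was at 9.70, 50.6, 14.7, 12.3 and 26.2 RPM in replicates 18, 19, 20, 21 and 23. All 5 leptin libraries were above all 3 controls, as was 1 of 10 members, where 23.2% of all genes did not overlap. The log2 fold change was 1.60 ± 0.60 (SE), with an adjusted p of 0.108. Without replicate 18 it was 1.74, with an adjusted p of 0.0221. Smad3 and Smad6 were then the 2 of 10 members called, where 41.8% of all genes were called. The 50 most abundant genes took 30.7% to 34.6% of the reads in 16 C and 13.4% to 19.8% in 16 L. The part of this shift in the Smad3 and Smad6 results was not tested.

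The receptors were spread widely in 16 L. Tgfbr1 was at 743, 568.4 and 757 RPM in 16 C. It was at 26.5, 1695, 806, 622 and 920 RPM in 16 L replicates 18, 19, 20, 21 and 23. Its lowest and highest levels of the whole set thus both fell in this group, and its log2 fold change of 0.22 ± 0.87 (SE) turned to -0.052 once the median of all genes (0.27) was set to 0. Bmpr1a, in the same order, was at 127, 196 and 105 RPM in 16 C and at 64.3, 225.7, 63.6, 78.3 and 90.3 RPM in 16 L. Here 4 of the 5 leptin libraries lay below all controls and replicate 19 lay above them (log2 fold change -0.47 ± 0.47, adjusted p = 0.517).

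Replicate 19 held the highest level within 16 L of Bmpr2 (29.6 RPM), Bmpr1a, Tgfbr1, Smad2 (68.0 RPM) and Smad3. It also differed from its group in mitochondrial reads, which were 4.71% of its counts against 0.435% to 0.654% in the other 4. Smad1 was at 12.8, 19.04 and 22.3 RPM in 16 C and between 21.1 and 37.2 RPM in 16 L, with a log2 fold change of 0.74 ± 0.36 (adjusted p = 0.182). At an unadjusted p under 0.05, 2 of 10 members and 32.4% of all genes passed. With limma-voom 6 of 10 members and 63.8% of all genes were called. Without replicate 18, 2 members and 51.3% of all genes passed at an unadjusted p under 0.05, and DESeq2 called 2 (Smad3 and Smad6) and 46.6% of all genes. Limma-voom then called 6 members and 65% of all genes, and the groups did not overlap for 2 members (Bmpr1b and Smad3) and 47.6% of all genes. The 8 members other than Smad3 and Smad6 then had log2 fold changes between -0.44 for Bmpr1a and 0.62 for Smad1, with adjusted p from 0.157 to 0.879, and Tgfbr1 was at 0.46 (adjusted p = 0.305). The median log2 fold change of the 10 was 0.09 and that of all genes 0.27.

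After 4 weeks of HFD, none of the 10 genes was called, against 4.26% of all genes. DESeq2 also called none of them and 11% of all genes. At an unadjusted p under 0.05, 1 member and 24.3% of all genes passed. The smallest p-values were those of Smad6 and Smad2.

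Smad6 was at 2.63, 2.95, 5.38, 3.49 and 0.906 RPM in 4-week CD. It was at 2.38, 1.09, 1.04, 0.757 and 1.10 RPM in 4-week HFD. Most HFD libraries were lower, but CD replicate 11 lay within their range. The log2 fold change was -1.27 ± 0.50 (SE, adjusted p = 0.140). Without that CD library it was -1.54, with an adjusted p of 0.0388, and 14.4% of all genes were called. These levels rest on 5 to 27 reads per library.

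Smad2 was at 57.8, 20.0, 40.8, 31.8 and 41.3 RPM in 4-week CD and at 50.5, 52.7, 57.4, 49.9 and 63.2 RPM in 4-week HFD. The HFD libraries were the more uniform, and only CD replicate 1 reached their range. This gave a log2 fold change of 0.48 ± 0.24 (adjusted p = 0.233).

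The receptors were spread widely among the 4-week HFD libraries. In replicates 3, 4, 5, 13 and 14, Tgfbr1 was at 500, 397, 420, 1146 and 1643 RPM and Bmpr2 at 7.27, 8.09, 7.52, 30.0 and 20.8 RPM. In 4-week CD, Tgfbr1 lay between 798 and 1532 RPM and Bmpr2 between 11.9 and 28.1 RPM. Replicates 3, 4 and 5 were thus below all CD libraries for both receptors, and replicates 13 and 14 were within or above the CD range. In the same order the macrophage and leukocyte markers summed to 235, 353, 183, 69.4 and 60.0 RPM, and their part was not tested. Over all 5 libraries the log2 fold changes were -0.30 ± 0.39 for Tgfbr1 (adjusted p = 0.664) and -0.27 ± 0.40 for Bmpr2 (adjusted p = 0.700). With sample quality weights, limma-voom called both, along with Smad3 and Smad6, 4 of 10 members where it called 34.6% of all genes.

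**Figure D3:**
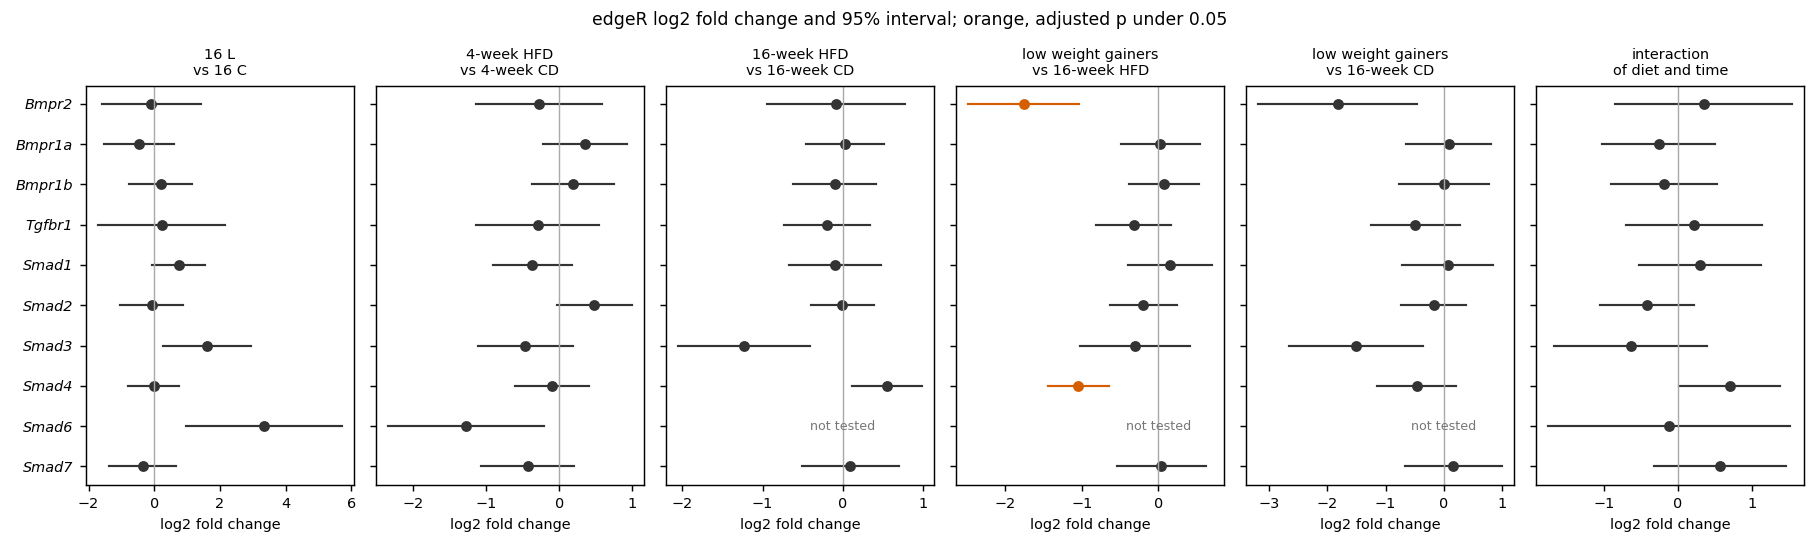
Log2 fold change of each gene with its 95% interval by edgeR in the 5 comparisons of groups and in the interaction of diet and time, on axes of different range. Bmpr2 and Smad4 in the low weight gainers against 16-week HFD are the 2 values past the threshold, and Smad6 was not tested in 3 comparisons.

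After 16 weeks of HFD, none of the 9 members that passed the filter on low counts was called. The background was also low, since 0.0276% of all genes were called. At an unadjusted p under 0.05, 2 of 9 members and 25.3% of all genes passed. DESeq2 called 1 member, Smad3, and 9.72% of all genes. With limma-voom none was called, against 0.046% of all genes.

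Smad3 was lower with HFD. In 16-week CD the lowest, median and highest levels were 12.2, 15.8 and 51.2 RPM. In 16-week HFD they were 4.63, 10.5 and 16.3 RPM. On the log2 scale the fold change was -1.23 ± 0.39 (SE), and the adjusted p of 0.0794 missed the threshold. The 2 highest CD values, 38.7 and 51.2 RPM, were those of replicates 1 and 2. Without these 2 libraries the log2 fold change was -0.40, with an adjusted p of 0.685.

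The same 2 libraries carried the most Bmpr2, at 36.0 and 35.8 RPM, against 4.42 to 17.1 RPM in the other 4 libraries of 16-week CD and 8.92 to 24.9 RPM in 16-week HFD. With all libraries the log2 fold change of Bmpr2 was -0.09 ± 0.41, and without the 2 it was 0.76 (adjusted p = 0.518). Over the whole set, Smad3 lay between 9.70 and 56.9 RPM in the 17 libraries whose 50 most abundant genes took under 22% of the reads. In the other 17 libraries it lay between 4.63 and 17.6 RPM. The ranges of Bmpr2 were 2.96 to 36.0 RPM and 4.24 to 24.9 RPM, with medians of 13.96 and 13.53 RPM. The part of this share in the Smad3 result was not tested.

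**Figure D4:**
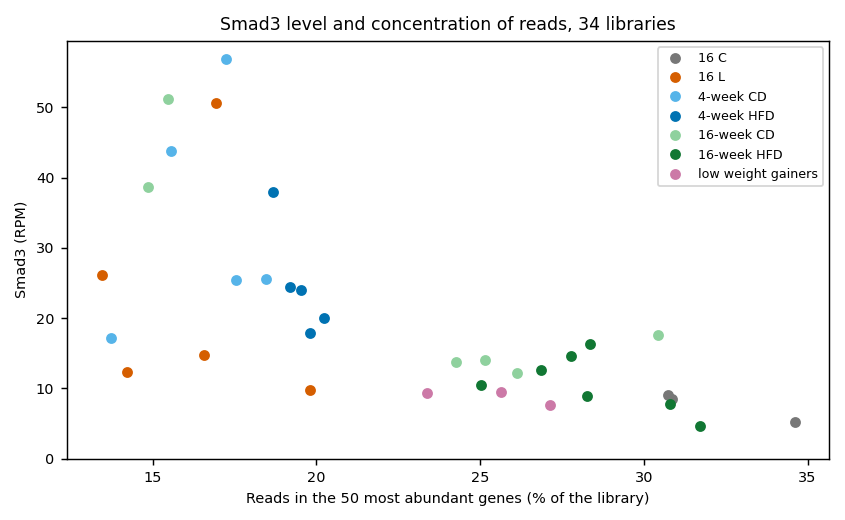
Smad3 level in RPM against the percentage of a library's reads in its 50 most abundant genes, 1 point per library, colored by group. Libraries below 22% reach up to 56.9 RPM, and none above it exceeds 17.6 RPM; 16-week CD has libraries on both sides.

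Smad4, the partner of all receptor-activated SMADs, moved in the other direction. It was at 38.9, 74.4 and 96.5 RPM (lowest, median, highest) in 16-week CD and at 94.6, 102.8 and 112.1 RPM in 16-week HFD. The 7 HFD libraries were close together (103.9 ± 6.1 RPM, SD), and only the highest CD library reached their range. This was a log2 fold change of 0.55 ± 0.21, with an adjusted p of 0.117. Without CD replicate 9, the highest, Smad4 and Smad3 were both called (adjusted p = 0.0355 and 0.0299), as were 20.5% of all genes.

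Smad6 did not pass the filter in these groups. It ranged from 0.486 to 2.63 RPM in 16-week CD and from 0 to 1.29 RPM in 16-week HFD, which is 0 to 17 reads per library. An exact two-sided permutation test over the libraries gave p = 0.0315, and 0.0944 after adjustment over the 3 comparisons so tested. The other members did not pass the test. Their log2 fold changes lay between -0.20 for Tgfbr1 and 0.09 for Smad7, with 95% intervals from -0.73 to 0.34 and from -0.51 to 0.69. The widest interval among them was that of Bmpr2, from -0.95 to 0.77.

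The low weight gainers, set against 16-week HFD, differed in the type II receptor and in the common SMAD. Bmpr2 and Smad4 were both lower, the 2 of 9 members called. This was close to the background, since 20.7% of all genes were called and 9.93% were called and lower. The ranges of both genes did not overlap between the groups, as was so for 20.5% of all genes. DESeq2 and limma-voom called the same 2, with 25.3% and 29.3% of all genes.

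Bmpr2 was at 6.94, 4.24 and 5.72 RPM in low weight gainers 21, 22 and 23. In 16-week HFD its lowest, median and highest levels were 8.92, 20.5 and 24.9 RPM. It was 3.38-fold lower in the low weight gainers (log2 fold change -1.76 ± 0.34, SE, adjusted p = 0.00312). The 3 low values rest on 42, 14 and 22 reads, and the HFD values on 26 to 96 reads. In 1 fit over all 34 libraries the log2 fold change was -1.74 and the adjusted p was 0.0955. That fit called 3.68% of all genes.

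The promoter of Bmpr2 is shown because it was the receptor that differed (GRCm38.p6, chr1:59764029-59764278, plus strand, the 250 bases before the RefSeq start). In capitals is GGCGCC, a GC-rich motif that BMP SMADs can bind:
Bmpr2: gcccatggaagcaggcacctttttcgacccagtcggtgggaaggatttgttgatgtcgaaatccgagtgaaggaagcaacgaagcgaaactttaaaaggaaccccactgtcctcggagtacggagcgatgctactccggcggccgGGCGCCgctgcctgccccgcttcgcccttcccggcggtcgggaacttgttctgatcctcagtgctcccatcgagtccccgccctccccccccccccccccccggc
This motif, its own reverse complement, was in 3 of the 10 member promoters, those of Bmpr2, Bmpr1a and Tgfbr1, and in 11.9% of all promoters.

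Smad4 was at 46.6, 62.3 and 47.9 RPM in low weight gainers 21, 22 and 23. The lowest of the 7 HFD libraries was at 94.6 RPM. Smad4 was 2.06-fold lower in the low weight gainers (log2 fold change -1.04 ± 0.19, adjusted p = 0.00224), and in 1 fit over all libraries the adjusted p was 0.0373. Both calls held without each of the 10 libraries in turn, with adjusted p up to 0.0296 for Bmpr2 and 0.028 for Smad4. By unadjusted p of the edgeR test over all genes, Smad4 ranked 162 and Bmpr2 ranked 261.

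**Figure D5:**
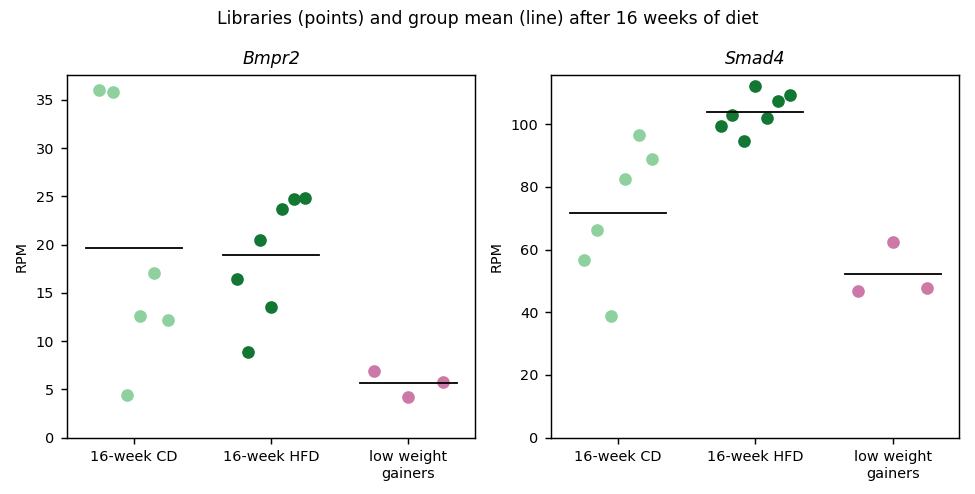
Bmpr2 and Smad4 in RPM (linear axes from 0) after 16 weeks of diet, 1 point per library and a line at the group mean. The 3 low weight gainers lie below all 7 libraries of 16-week HFD for both genes. In 16-week CD the lowest libraries are at 4.42 RPM for Bmpr2 and 38.9 RPM for Smad4, against 4.24 and 46.6 RPM in the low weight gainers.

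The low weight gainers also differed from 16-week HFD in mitochondrial reads, at 0.337% to 0.614% against 0.786% to 1.53%. The part of this difference in the results for Bmpr2 and Smad4 was not tested. The cumulus and granulosa markers differed too. Of 10 tested, Cyp11a1, the enzyme that starts steroid synthesis, was higher (4318 to 4994 against 1169 to 2246 RPM, adjusted p = 0.00358) and Inhba and Ptgs2 were lower, and the list summed to 9008 to 11041 against 6982 to 9533 RPM. Their part was not tested either. Marker sums of other cell types overlapped between the groups. They were 216 to 372 against 125 to 650 RPM for macrophages and leukocytes, 158 to 498 against 196 to 675 RPM for oviduct epithelium, and at most 1.04 against 2.42 RPM for the oocyte.

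The type I receptors and the remaining SMADs did not pass the test in this comparison. Log2 fold changes (95% interval) were 0.03 (-0.49 to 0.54) for Bmpr1a, 0.07 (-0.38 to 0.53) for Bmpr1b and -0.32 (-0.81 to 0.16) for Tgfbr1. They were 0.15 for Smad1, -0.20 for Smad2, -0.31 for Smad3 and 0.04 for Smad7, with adjusted p from 0.527 to 0.934. Changes of 2-fold in the type I receptors lay outside these intervals. Smad6 was at 0.496, 0 and 2.08 RPM in the low weight gainers (exact permutation p = 0.642, and 0.642 adjusted over the 3 comparisons).

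Against 16-week CD, none of the 9 tested members was called in the low weight gainers, with 0.00861% of all genes called. At an unadjusted p under 0.05, 2 of 9 members and 11.2% of all genes passed. DESeq2 and limma-voom called none of the 9 members and 2.11% and 1.84% of all genes. The CD libraries are those of the previous 16-week comparison, so these values are not independent of it.

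Bmpr2 had the smallest p, with 4.42, 14.8 and 36.0 RPM as lowest, median and highest level in 16-week CD against 4.24 to 6.94 RPM in the low weight gainers. The log2 fold change was -1.82 ± 0.62 (adjusted p = 0.351), and it was closer to 0, at -1.001, without CD replicates 1 and 2. Smad3 was at 9.42, 7.56 and 9.36 RPM in the low weight gainers, below all 6 CD libraries (12.2 to 51.2 RPM), the 1 of 9 members that did not overlap, as was so for 7.56% of all genes. Its log2 fold change was -1.51 ± 0.53 (adjusted p = 0.352), and -0.71 without the same 2 libraries. Smad4 was below the CD median of 74.4 RPM in all 3 low weight gainers but within the CD range (-0.47 ± 0.31, adjusted p = 0.602). For Smad6 the exact permutation test gave p = 0.250, and 0.375 adjusted over the 3 comparisons.

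The diet effect was then compared between 16 and 4 weeks by an interaction term. None of the 10 members was called, against 3.66% of all genes. At an unadjusted p under 0.05, 1 member and 23.4% of all genes passed. DESeq2 called none of the 10 and 9.52% of all genes. With limma-voom Bmpr2 and Tgfbr1 were called, 2 of 10 members, where 18.7% of all genes were called.

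Smad4 had the smallest p, with a difference of the log2 fold changes, 16 weeks minus 4 weeks, of 0.69 ± 0.33 (adjusted p = 0.205). At 4 weeks Smad4 was at 133.1, 105, 88.2, 73.6 and 74.1 RPM with CD. It was at 121, 96.2, 73.7, 92.8 and 69.1 RPM with HFD. The 4-week groups overlapped almost fully (log2 fold change -0.10 ± 0.24), whereas at 16 weeks 6 of 7 HFD libraries lay above all CD libraries. Smad2 had the next smallest p (-0.42 ± 0.31, adjusted p = 0.420). The effects of the diet on these genes were thus not shown to differ between the times.

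Some of the 10 genes varied together from library to library within groups. With group means removed, the Pearson correlation of log2 levels over the 34 libraries was 0.78 between Bmpr2 and Smad3, 0.78 between Bmpr1b and Tgfbr1 and 0.67 between Bmpr2 and Tgfbr1. Without 16 L replicate 18 these were 0.76, 0.57 and 0.69. The points share library depth and composition, so the values are given as a description.

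Over all 13236 genes that passed the filter, the patterns nearest to each were found in the same way. They were Steap2 (r = 0.89) and Phf8 (0.87) for Bmpr2, and Dpy19l4 (0.88) and Frs2 (0.87) for Bmpr1b. For Tgfbr1 they were Pign (0.96) and Cblb (0.94), and for Smad4 Fam108b (0.84) and Reep3 (0.80). No receptor or SMAD of the set was among the 2 nearest of these 4 genes.

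The rest of the pathway was read from 4 lists, of 12 ligands, 10 other receptors, 14 other SMADs and regulators, and 12 target genes. Of the oocyte ligands, Gdf9 had a median of 0.864 RPM over all libraries and Bmp15 had no read in 29 of 34. Inhba, which encodes the βA subunit of activin and inhibin, was the most abundant ligand gene by RPM (median 211.9).

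In 16 L against 16 C, 1 of 6 ligands tested rose and 1 of 9 receptors, 1 of 14 regulators and 1 of 9 targets fell, against 8.56% of all genes called. Skil, the SMAD corepressor SnoN, was at 7597 to 10756 RPM in 16 C and at 266 to 772 RPM in 16 L (log2 fold change -4.48, adjusted p = 0.00758). Id2, a BMP target gene, was at 1476 to 3066 RPM in 16 C and at 97.3 to 501 RPM in 16 L (-3.33, adjusted p = 0.0230). Acvr1c, a type I receptor for activin-like ligands (ALK7), went from 33.5 to 45.8 RPM to 0.681 to 15.1 RPM (-2.29, adjusted p = 0.0464). Tgfb3 rose from 2.13 to 2.70 RPM to 7.05 to 17.4 RPM (2.19, adjusted p = 0.0438). These 4 genes are named because they were called. In 4-week CD, Skil was at 275 to 785 RPM, Acvr1c at 8.13 to 16.3 RPM and Tgfb3 at 5.90 to 9.97 RPM. These levels were nearer to 16 L than to 16 C. In 16-week CD the same genes were at 541 to 4125, 7.22 to 55.8 and 1.59 to 11.5 RPM. The 50 most abundant genes took 30.7% to 34.6% of the reads in 16 C and 13.4% to 19.8% in 16 L. The part of this shift was not tested. Without replicate 18, where 41.8% of all genes were called, all 4 were again called: Skil (-4.53, adjusted p = 9.09e-05), Id2 (-4.10, 8.51e-05), Acvr1c (-2.29, 0.01003) and Tgfb3 (1.82, 0.0143). The counts were then 1 higher and 1 lower of 5 ligands, 2 and 2 of 7 receptors, 2 and 1 of 13 regulators and 1 and 2 of 8 targets.

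In 4-week HFD, 1 of 14 regulators was called and none of 5 ligands, 9 receptors and 8 targets, against 4.26% of all genes. It was Ski, a SMAD corepressor related to Skil, at 32.4 to 40.0 RPM against 45.5 to 87.9 RPM in 4-week CD (-1.02, adjusted p = 0.0275). In 16-week HFD, and in the low weight gainers against 16-week CD, no gene of the lists was called.

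In the low weight gainers against 16-week HFD, 1 of 5 ligands was higher and 2 lower, 1 of 7 receptors higher and 1 lower, 2 of 13 regulators higher and 1 lower, and none of 7 targets higher and 2 lower. Of all genes, 20.7% were called there and 9.93% were called and lower. Bmp6, a BMP ligand made by granulosa cells and oocytes, was at 51.8 to 88.3 RPM against 3.49 to 32.3 RPM (log2 fold change 2.04, adjusted p = 0.00354). Acvr2a, a type II receptor for activins, was at 14.9 to 20.3 RPM against 22.8 to 48.3 RPM (-1.22, adjusted p = 0.00372). Grem1, a BMP antagonist induced by oocyte factors in CCs, was at 34.6 to 68.6 RPM against 118 to 289 RPM (-1.57, adjusted p = 0.00312).

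The other calls of that comparison were smaller. Inhba (-1.07, adjusted p = 0.0110), Inhbb (-0.90, 0.0329) and Ptgs2 (-0.89, 0.0388) were lower on the log2 scale. Amhr2, the receptor of anti-Müllerian hormone, was higher (0.94, 0.0326). Of the ubiquitin ligases that mark SMADs and receptors for breakdown, Smurf2 was lower (-1.13, 0.00639) and Smurf1 higher (0.95, 0.0160), and Ski was higher (0.86, 0.0339).

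In the interaction of diet and time, Inhbb (1.46, adjusted p = 0.0404) among 5 ligands and Smurf2 (1.02, adjusted p = 0.0473) among 14 regulators were called, and none of 9 receptors and 9 targets, against 3.66% of all genes. Among the 7 groups, 9 of 9 ligands, 6 of 9 receptors, 10 of 14 regulators and 8 of 11 targets differed, against 67.8% of all genes. The smallest adjusted p of each list were those of Gdf9 (0.000119), Acvr2b (9.67e-05), Skil (3.31e-07) and Id2 (1.15e-06). For Gdf9 this comparison includes the 4-week HFD library with oocyte markers.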

How the data were processed

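The authors deposited 1 table of raw read counts per gene for 34 Smart-seq2 libraries, without normalization. The submitters' processing notes name Trim Galore 0.4.2, HISAT2 2.0.5 and GRCm38. The counting program, annotation and use of strand are not given in the sources used here. Reads carry no molecular identifiers, so low counts are less certain than they look. Groups and replicate numbers came from the sample labels. No pair of the 72 replicate pairs was identical.

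Genes were tested with edgeR 4.0.16 in R 4.3.3 (TMM, filterByExpr, robust quasi-likelihood F-test, two-sided) on the libraries of the groups compared, with Benjamini-Hochberg adjustment over all genes and a threshold of 0.05. SE is the fold change over the root of F, and 95% intervals use the test's degrees of freedom. DESeq2 1.42.0 and limma 3.58.1 (voom) served as alternatives. The scripts were tested on simulated data. RPM per kb used exon lengths of GENCODE M21 within the table's gene limits, and promoters are from RefSeq (GRCm38.p6). The p-values measure the spread between these libraries. Genes named are all 10 members, with levels for those called or with the 2 smallest p-values, up to 4 called genes per list, and the 2 nearest patterns. Other levels were chosen after they were seen. The members and lists were chosen with earlier results of these data known.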

Additional observations from a re-analysis of the deposited data

Results flagged for a closer look

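Dixon's test at 95% was run on 50 combinations of a gene and a group of 4 to 10 libraries. The combinations share libraries and are not independent. In 8 of them a library lay far from the others, where chance flags about 1 in 20 independent tests. In 16 L these were Tgfbr1 (26.5 RPM, next 622) and Bmpr1b (41.9 RPM, next 125.3), both low in replicate 18, and Bmpr1a (225.7 RPM, next 90.3) and Smad2 (68.0 RPM, next 26.8), both high in replicate 19. Replicate 18 is the library with 34686 RPM of oviduct markers, and replicate 19 the one with 4.71% mitochondrial reads.

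In 4-week CD, Bmpr1b was low in replicate 7 (75.3 RPM, next 110.2) and Tgfbr1 high in replicate 1 (1532 RPM, next 919). Smad1 was low in 16-week HFD replicate 15 (8.33 RPM, next 14.6). Smad6 was high in 4-week HFD replicate 3 (2.38 RPM, next 1.10).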

How the results depend on the processing

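The number of members called, 0 of 10 in 16 L, was 1 with DESeq2, 6 with limma-voom, 3 with scaling by total counts, 2 with all 34 libraries in 1 fit, and 0 to 2 without each library (2 without replicate 18, Smad3 and Smad6, and 1 without replicate 19, Smad6). In 4-week HFD it was 4 with limma-voom and 0 to 1 without each library (1 without CD replicate 11). In 16-week HFD it was 1 (Smad3) with DESeq2, total counts or 1 fit over all libraries, and 0 to 2 without each library (2 without CD replicate 9). In the low weight gainers against 16-week HFD it was 1 with 1 fit over all libraries and 2 in the other alternatives. In the interaction it was 2 with limma-voom. Among the 7 groups it was 4, 10 with limma-voom, 6 with total counts (Smad2 and Smad7 added), 3 with no filter (Smad4 lost), 3 of 9 with at least 10 counts in every library (Smad6 not tested), and 3 to 7 without each library (7 without 16 L replicate 19).

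The direction turned in 16 L for Tgfbr1 (-0.052) and Bmpr1b (-0.079) with the median of all genes set to 0, and for Tgfbr1 without each library (-0.21 to 0.46). It turned for Bmpr2 in 16-week HFD with limma-voom (0.66), without CD replicates 1 and 2 (0.76, chosen after seeing the data) and without each library (-0.31 to 0.19). In 16 L, Bmpr2 (-0.72 to 0.12), Smad2 (-0.50 to 0.04) and Smad4 (-0.11 to 0.07) also had both signs without each library, and Bmpr1a was at 0.39 with total counts. In the interaction Smad3 turned from -0.64 to 0.27 with limma-voom and to 0.05 without 16-week CD replicates 1 and 2. None of these was called. The cause was not tested. Over all genes the calls varied more, from 1004 to between 30 and 7474 in 16 L, from 499 to between 8 and 4052 in 4-week HFD, from 3 to between 0 and 2222 in 16-week HFD, from 2330 to between 487 and 3301 in the low weight gainers against 16-week HFD and from 1 to between 0 and 245 against 16-week CD, and from 448 to between 10 and 2289 in the interaction. Of 491 other values 48 changed sign, and of 698 from leaving out a library 60 did, none of a called member. The labels do not say whether a replicate number shared by 4-week and 16-week groups links the libraries. With a replicate block the interaction called 0 members. Scaling by total counts moved the median of all genes in 16 L from 0.27 to 1.08. Depth limits Smad6, with at most 34 reads in a library.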
